A study of Tribolium castaneum with 8 samples.

Results

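The genes described here are the enzymes and binding proteins that write, erase and read DNA methylation and histone modifications in Tribolium castaneum, the red flour beetle, which passes through larva and pupa before it becomes an adult. Members were all gene models whose nr protein description or KEGG text in the deposited files held at least 1 of the terms cytosine-5, DNA methyltransferase, methyl-CpG, histone-lysine, histone acetyltransferase, histone deacetylase, histone demethylase, histone methyltransferase, sirtuin or polycomb. This gave 80 of the 14422 models that had a read in at least 1 library. The libraries came from polyadenylated RNA of whole bodies of strain GA-1, reared on whole wheat flour with yeast at 30 °C, with 1 library each from embryos of 3 days, late larvae of about 20 days, pupae of 3 days and adults of 3 days. No genotype or treatment differed between the groups, the labels give no sex, and tissues were not separated.

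DNA methyltransferases of the Dnmt1 family copy methyl marks on cytosine to the new DNA strand, and Dnmt2, in spite of its name, is known mainly as a methyltransferase of transfer RNA. On histones, lysine methyltransferases write marks that are read by other proteins, such as the trimethyl mark on lysine 27 of histone H3 that Polycomb binds in silenced genes, and demethylases remove them. Acetyltransferases open chromatin by acetylating histone tails, and deacetylases, including the NAD-dependent sirtuins, take the acetyl group off again. In insects these proteins are known for keeping homeotic genes on or off through development and for dosage, repair and metabolic control.

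Each library held between 3.09 M and 3.67 M unique reads in gene models. Because each stage has 1 library, no difference has a replicate check, and no p-value is given. Levels are RPKM, reads per kilobase of model scaled to the total of reads in models, and a fold is a ratio of RPKM followed in parentheses by its exact binomial 95% interval, which covers counting error only. In counts of members, higher and lower refer to a difference of 2-fold or more after adding 1 RPKM to both levels. In whole bodies, fewer cells of a type and less RNA per cell cannot be told apart. The larval library spent many reads on storage proteins, as its 6 hexamerin models summed to 52867 RPKM, against 208 RPKM in the embryo, 2164 in the pupa and 68.7 in the adult. A rescaling to the median gene (median-ratio) moved every ratio of a step by a constant factor. It multiplied larva over embryo by 1.56 and adult over pupa by 1.17, and divided pupa over larva by 1.37. Folds smaller than that factor and opposite to its move have no fixed direction, so the members are set against all genes.

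The text match was checked model by model. Of the 80 members, 52 were well matched. These were 45 models with an nr description, or a KEGG hit of at least 200 bits, that names the enzyme, 4 models in which the named gene is fused with a second gene, and 3 partner subunits of the enzymes. The other 28 were not: 26 were matched only through a weak KEGG hit with a bit score of 51.2 to 145, and 2 were set aside as having another function. Those 2 also have a KEGG hit above 200 bits. The well matched members included 47 with a gene symbol in the RefSeq annotation (assembly icTriCast1.1), which is used below beside the model number. All 52 had reads in each of the 4 libraries, with at least 14 reads and levels from 5.19 to 306 RPKM.

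Well matched members were expressed above the typical gene at every stage and varied less than it did. Their median level was 48.7 RPKM in embryos, 24.1 in larvae, 41.0 in pupae and 28.2 in adults, where the median over all genes was 21.0, 16.9, 19.3 and 20.1 RPKM in the same order of stages. Together they took 0.723% of the reads of the embryo, 0.375% of the larva, 0.621% of the pupa and 0.451% of the adult. The ratio of the highest to the lowest level, with 1 RPKM added, had a median of 2.11 over these 52, against 2.80 over all genes. It reached 4 in 4 of the 52, which were Hmt4-20, l(3)73Ah, Sirt7 and Utx, while 35.4% of all genes reached it. Among the 24 weakly matched or other members with at least 1 RPKM it reached 4 in 7, with a median of 2.64. The 52 had at least 14 reads in every library, while all genes with 1 RPKM in 1 library entered the reference. Counting error widens this ratio at few reads, and its part in the difference was not tested.

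The most common highest point was the embryo and the most common lowest point the larva. Of the 76 members with at least 1 RPKM in a library, 45 had their highest level in embryos, 2 in larvae, 18 in pupae and 11 in adults. Over all genes the embryo was highest in 42.0%, the larva in 15.7%, the pupa in 16.9% and the adult in 25.4%. Among the 52 well matched members the embryo was highest in 33, the larva in 0, the pupa in 15 and the adult in 4. The embryo was highest with its counting interval clear of the next library in 23 of the 52, or 44.2%, against 19.6% of all genes. Taken over the genes highest in the embryo alone, that was 69.7% of the 33 members and 46.6% of all such genes. Intervals separate more readily at higher read counts, and the median embryo level was 48.7 RPKM for the well matched members against 21.0 over all genes. How much of the excess comes from this was not tested. The larva was lowest in 32 of the 52, against 41.5% of all genes. The commonest order was embryo, pupa, adult, larva, from high to low, found in 20 members, and then embryo, pupa, larva, adult, in 9. Neighbouring levels in that order often overlapped. In 8 members, namely ash1, Sirt7, HDAC1, Utx, Tip60, Hmt4-20, JARID1 and EHMT, all 3 steps of the order lay outside counting error. After median-ratio rescaling the embryo remained the most common highest library with 22 of the 52, followed by 11 in the pupa, 11 in the adult and 8 in the larva, and the adult became the most common lowest library with 24, ahead of 16 in the larva, while over all genes the embryo was then highest in 28.6% and the adult lowest in 24.7%.

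**Figure D1:**
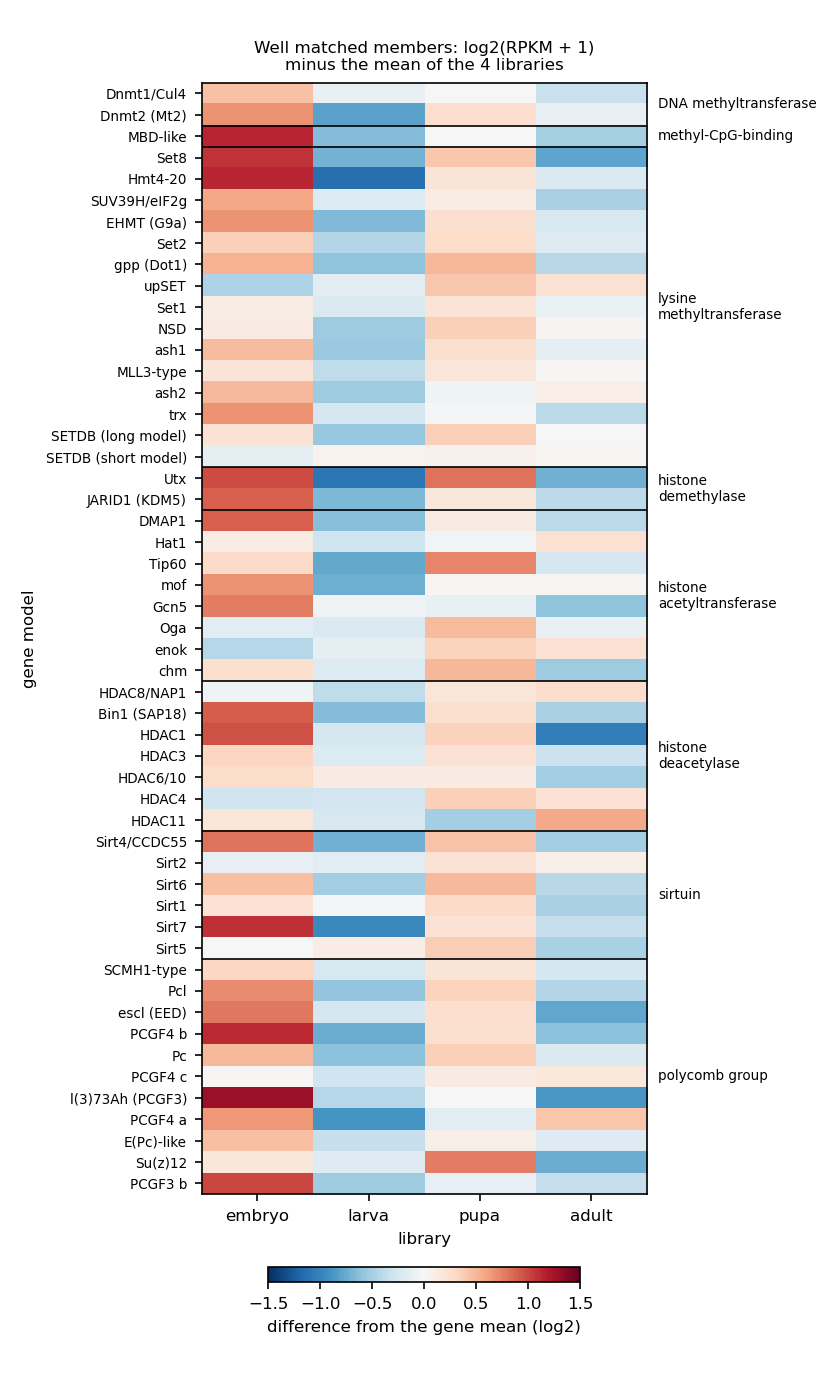
Level of each of the 52 well matched members in the embryo, larva, pupa and adult libraries, as log2(RPKM + 1) minus the gene's mean over the 4 libraries (red above the mean, blue below it), grouped by role and sorted by mean level within a role. The embryo column is red in most rows, with the embryo highest in 33 members, and the larval column is blue in most rows, with the larva lowest in 32.

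For the maintenance methyltransferase itself the files allow only a joint reading. TC013587, the model that names DNMT1, is a fusion with cullin 4, a ubiquitin ligase scaffold, so reads of both genes are counted in it and cannot be split. It stood at 29.5 RPKM in embryos, 19.8 in larvae, 21.5 in pupae and 16.8 in adults. Within this model the embryo was highest as deposited, and the larval level was 1.49-fold below it (1.31 to 1.70), a difference below the rescaling factor, so that the larva was highest on median-ratio scaling. Dnmt2 (symbol Mt2, TC005511) was at 25.2, 8.47, 18.7 and 14.1 RPKM from embryo to adult. Its larval level was 2.98-fold below the embryo level (1.94 to 4.69), and its pupal level 2.21-fold above the larval one (1.42 to 3.51). The larva had the fewest reads, 30 against 81 in the embryo. TC016110 carries a weak match, with a bit score of 61.2, and had 62.7, 50.0, 61.5 and 45.2 RPKM.

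The methyl-CpG-binding protein MBD-like (TC003775), the family that in vertebrates reads methylated cytosine, was far higher in the embryo than later. It had 93.0 RPKM in embryos, 26.0 in larvae, 41.5 in pupae and 29.0 in adults. The larva was 3.58-fold lower than the embryo (2.64 to 4.92), the pupa 1.60-fold above the larva (1.14 to 2.27) and the adult 1.43-fold below the pupa (1.01 to 2.04). It stayed more than 2-fold lower in the larva after median-ratio rescaling. DMAP1 (TC009994), which binds DNMT1 in mammals and is a subunit of the Tip60 complex in Drosophila, took the same order as deposited, with 198, 67.2, 116 and 79.6 RPKM.

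UHRF1, TET and thymine DNA glycosylase, which act with the methyltransferases but lie outside the members, were highest in the embryo too. UHRF1 (TC001240), which in mammals brings DNMT1 to hemimethylated DNA, stood at 18.4 RPKM in embryos, 6.12 in larvae, 5.32 in pupae and 4.98 in adults. The TET dioxygenase TC013798, which oxidises methylcytosine, had 10.8, 1.63, 2.33 and 1.89 RPKM, and thymine DNA glycosylase (Tdg, TC004290), which excises the oxidised base, had 56.9, 9.15, 18.6 and 18.3. In larvae all 3 were lower than in embryos by 2-fold or more, beside 34.2% of all genes, Tdg 6.22-fold (4.80 to 8.15) and the TET model 6.61-fold (3.80 to 12.3) on 15 larval reads. After median-ratio rescaling 2 of the 3, Tdg and TET, were still past 2-fold. S-adenosylmethionine synthetase (Sam-S, TC011082), which makes the methyl donor, had no such order, with 455, 423, 696 and 519 RPKM. Adenosylhomocysteinase (Ahcy, TC014564), which clears the by-product of methylation, was instead highest in the larva, with 48.4 RPKM in embryos, 109 in larvae, 48.0 in pupae and 45.9 in adults. Another model of this supply list, TC001438, ran the other way with 82.4, 30.4, 55.6 and 33.6 RPKM.

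**Figure D2:**
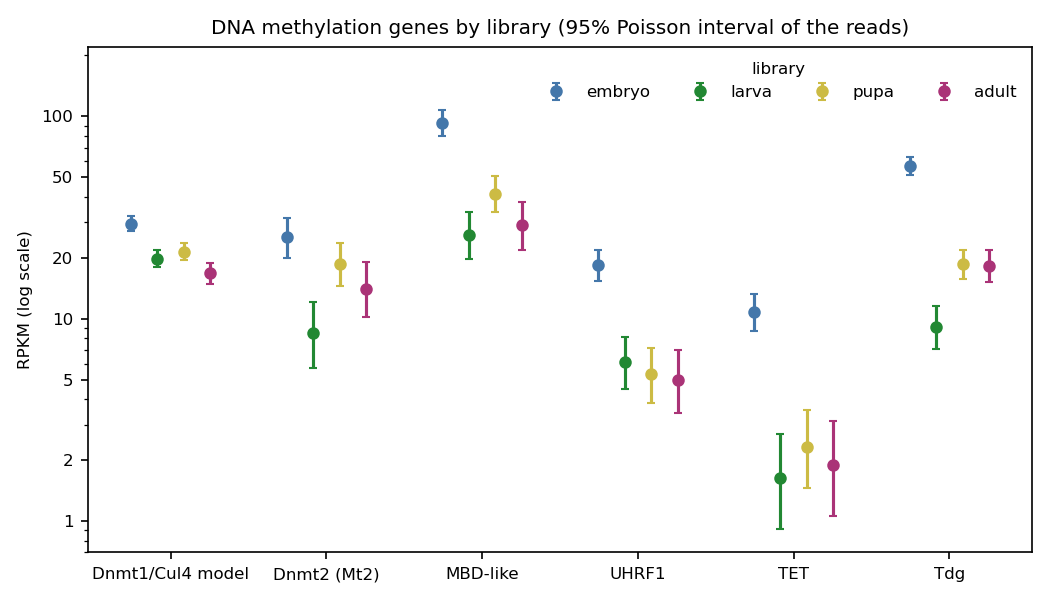
RPKM on a log axis of the Dnmt1/Cul4 fusion model, Dnmt2, MBD-like, UHRF1, TET and Tdg in the embryo, larva, pupa and adult libraries, with bars for the exact 95% Poisson interval of the reads. The embryo point lies above the other 3 points for each gene, clear of the larval interval in each, and the gap is narrowest for the fusion model, at 29.5 RPKM in the embryo and 19.8 in the larva.

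The first step set the late larva against the embryo. Lower in the larva by this measure were 35 of the 74 members tested and 2 were higher, where 34.2% of all genes were lower and 18.6% higher. Their median log2 ratio was -0.94, against -0.62 over all genes. Without the weak matches, 24 of 52 were lower and 0 higher, with a median of -0.87. On median-ratio scaling 7 of the 52 stayed past 2-fold, which were Sirt7, MBD-like, l(3)73Ah, Utx, the PCGF4 model TC005276, Hmt4-20 and Set8. Of all genes 16.8% were lower and 24.6% higher on that scaling. At a 4-fold threshold 6 of the 74 members were lower and 2 higher, beside 9.65% and 11.9% of all genes, and the counting interval lay wholly beyond 2-fold for 24 lower and 2 higher, beside 18.9% and 14.1%. The well matched median lay 0.25 below that of all genes on the log2 scale as deposited. It did so after this rescaling too, which shifts both medians alike and so cannot test the gap.

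At the second step, from larva to pupa, 16 of 74 members were at least 2-fold higher in the pupa and 2 lower, beside 22.7% of all genes higher and 14.2% lower. The member median was 0.66, against 0.43 over all genes. Well matched members higher in the pupa were 9 of 52, namely Sirt6, Sirt7, the Sirt4 fusion, Utx, Dnmt2, Tip60, Hmt4-20, gpp and Set8, and 0 were lower. Utx and Tip60 stayed past 2-fold on median-ratio scaling, where 13.9% of all genes were higher. At 4-fold 0 members were higher and 2 lower, beside 5.86% and 7.92% of all genes, and with the interval wholly beyond 2-fold 5 were higher and 2 lower, beside 10.6% and 9.95%.

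At the third step, from pupa to adult, 7 of 76 members were at least 2-fold higher in the adult and 6 lower, beside 22.8% and 15.6% of all genes. The median was -0.38 for the members and -0.09 for all genes. Of the 52 well matched members 46 had a log2 ratio below 0, with a median of -0.48, beside 53.6% of all genes below 0. On median-ratio scaling 39 of the 52 were below 0, with a median of -0.27, beside 45.0% of all genes. The 6 that were lower were HDAC1, Su(z)12, escl, Utx, chm and Set8, and HDAC11 alone was higher. The other 6 members higher in the adult were weak matches. HDAC1, Su(z)12, Utx and, upward, HDAC11 stayed past 2-fold on median-ratio scaling, where 11.8% of all genes were lower and 25.8% higher. At 4-fold 0 members were lower and 0 higher, beside 4.58% and 11.7% of all genes, and with the interval wholly beyond 2-fold 3 were lower and 3 higher, beside 7.93% and 14.9%.

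**Figure D3:**
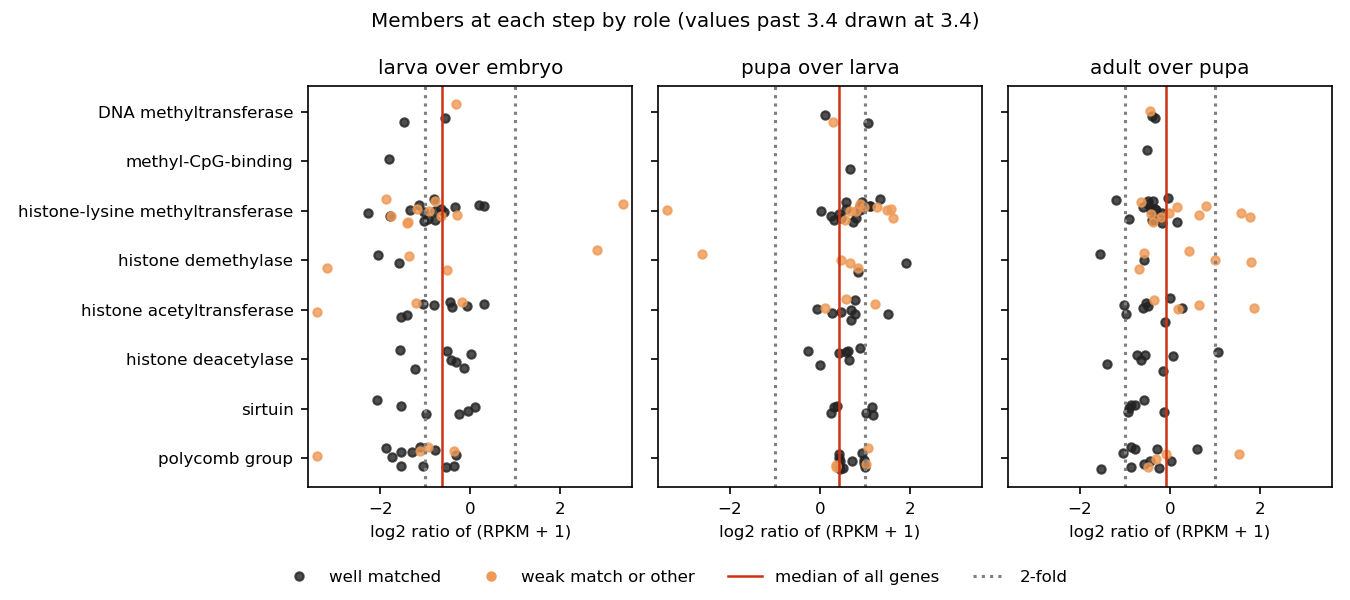
Log2 ratio of (RPKM + 1) of each tested member at the 3 steps, later library over earlier library, by role, with well matched members in black, weakly matched or other members in orange, the median of all genes as a red line and 2-fold as dotted lines. Well matched members lie left of the red line more often than right of it for larva over embryo (32 of 52) and adult over pupa (44 of 52), and right of it more often for pupa over larva.

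**Figure D4:**
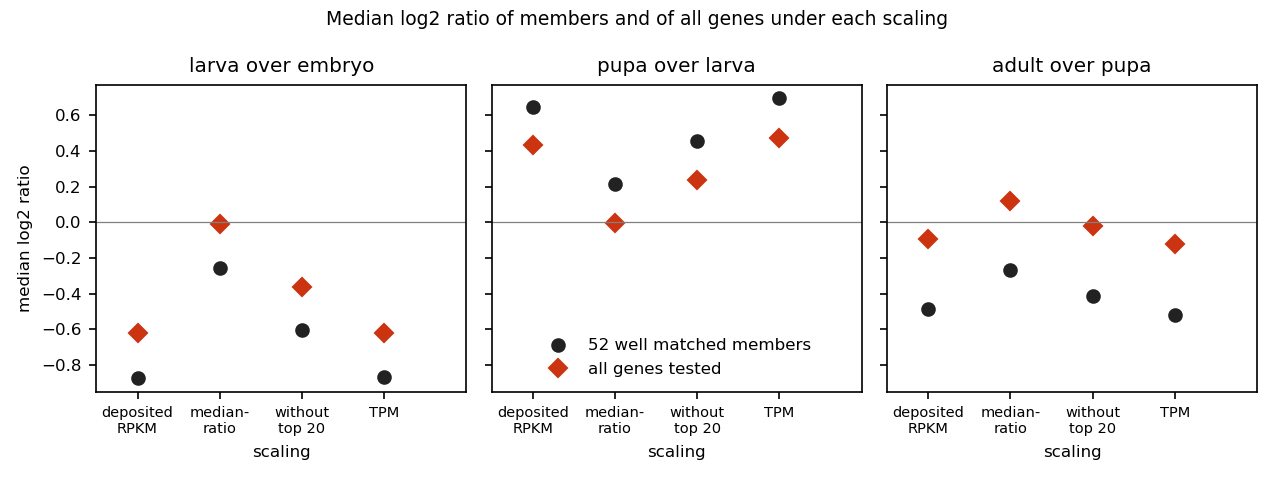
Median log2 ratio of the 52 well matched members (black circles) and of all genes tested (red diamonds) at each step under 4 scalings: the deposited RPKM, median-ratio, totals without the 20 most abundant genes of each library, and TPM. Both medians move together, because each scaling shifts all ratios of a step by nearly the same amount. The gap between them, near -0.25, 0.22 and -0.39 for the 3 steps, was therefore bound to stay and is no check.

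The writers of histone lysine methylation included the widest range among the well matched members. Hmt4-20 (TC008337), which places the di- and trimethyl mark on lysine 20 of histone H4, stood at 116 RPKM in embryos, 23.3 in larvae, 59.9 in pupae and 44.8 in adults. The larva was 5.00-fold below the embryo (4.24 to 5.93). Set8 (TC015766), which places the first methyl group on the same residue, had 208, 59.6, 130 and 56.2 RPKM. Larval Set8 was 3.50-fold below embryonic Set8 (2.88 to 4.26), and adult Set8 2.31-fold below pupal Set8 (1.86 to 2.89). Both enzymes of this mark were thus highest in the embryo and second in the pupa.

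Of the writers of histone H3 lysine 9 methylation, EHMT (the G9a homologue, TC011127) was at 70.3, 27.3, 51.7 and 36.8 RPKM from embryo to adult, and the larva was 2.57-fold below the embryo (2.23 to 2.98). The Su(var)3-9 type model TC001103 is fused with the translation factor eIF2 gamma, which shares a gene with it in Drosophila as well. It held 75.1, 43.1, 53.8 and 35.1 RPKM for both together. SETDB is split over 2 well matched models that carry the ID of 1 RefSeq gene. The longer, TC006043, had 19.8, 11.0, 21.9 and 16.9 RPKM, and the shorter, TC006042, had 7.41, 8.65, 8.73 and 8.54 RPKM on 21 to 28 reads, so its levels overlapped in all libraries. The weakly matched member TC006111, with a bit score of 66.2, carries that ID too and had 1.86, 1.35, 6.25 and 7.04 RPKM.

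Methyltransferases of lysine 4, the mark of active promoters and enhancers, differed less between libraries than the lysine 20 enzymes. Set1 (TC015826) had 28.8, 22.8, 30.8 and 24.7 RPKM, and the MLL3-type model TC000606 had 24.8, 16.3, 24.7 and 21.8. Trithorax (trx, TC004768), which keeps homeotic genes active, was higher in the embryo than later, with 28.4, 14.4, 17.2 and 12.9 RPKM, and its partner subunit ash2 (TC011210) had 27.5, 13.0, 18.4 and 20.8. For lysine 36, a mark of transcribed gene bodies, Set2 (TC014310) stood at 52.2, 29.6, 49.5 and 35.3 RPKM, NSD (TC012700) at 28.0, 17.5, 33.3 and 26.5, and ash1 (TC000311), another trithorax group protein, at 35.4, 16.7, 29.8 and 22.5. The Dot1 homologue grappa (gpp, TC013593), writer of lysine 79, was nearly equal in embryo and pupa, at 51.1 and 50.2 RPKM, and less abundant in the larva at 22.8 and the adult at 26.3. A different order was found for upSET (TC030632), which has a SET domain and in Drosophila holds down histone acetylation. It was lowest in the embryo with 23.5 RPKM, and had 29.0 in larvae, 43.6 in pupae and 38.6 in adults. The 15 well matched models of this class include the partner subunit ash2 and upSET. Of these 15, 6 were lower in the larva than in the embryo and 0 higher, beside 34.2% of all genes lower. Among the 6 was ash2. Of the same 15, 3 were higher in the pupa than in the larva, beside 22.7% of all genes, and 1 was lower in the adult than in the pupa, beside 15.6%. These shares are near those of all genes, and on median-ratio scaling the 3 counts were 2, 0 and 0. The larva to embryo median was -0.80, and -0.19 on median-ratio scaling.

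Of the 2 well matched demethylases, Utx passed 2-fold at all 3 steps and JARID1 at the first step alone. Utx (TC004698), which removes methyl groups from lysine 27 of histone H3 and so counters Polycomb silencing, stood at 135 RPKM in embryos, 31.7 in larvae, 121 in pupae and 41.0 in adults. It was high in embryo and pupa and low in larva and adult. Larval Utx was 4.26-fold below embryonic Utx (3.83 to 4.75), the pupa was 3.82-fold above the larva (3.43 to 4.26), and the adult 2.95-fold below the pupa (2.66 to 3.28). It was the only well matched member past 2-fold at each of the 3 steps on both the deposited and the median-ratio scale. The lysine 4 demethylase of the JARID1 (KDM5) type, TC010807, had 106, 34.9, 63.8 and 42.9 RPKM, and its larval level was 3.03-fold below the embryo level (2.75 to 3.33). On median-ratio scaling JARID1 passed 2-fold at 0 of the 3 steps.

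Ratios between 2 genes of the same library do not depend on scaling. E(z), the methyltransferase of lysine 27, lies outside the members because its text holds none of the search terms, and was added after its values were seen. E(z) (TC003094) had 125 RPKM in embryos, 59.9 in larvae, 118 in pupae and 62.4 in adults. The ratio of E(z) to Utx was 0.923 in the embryo (0.849 to 1.003), 1.89 in the larva (1.65 to 2.16), 0.976 in the pupa (0.900 to 1.06) and 1.52 in the adult (1.33 to 1.74). Writer and eraser were thus near parity in the embryo and pupa, and the writer's transcript was more abundant per length in the larva and adult. For lysine 4 the 3 writers together stood at 0.777 times the level of JARID1 in the embryo, 1.53 times in the larva, 1.14 times in the pupa and 1.39 times in the adult.

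**Figure D5:**
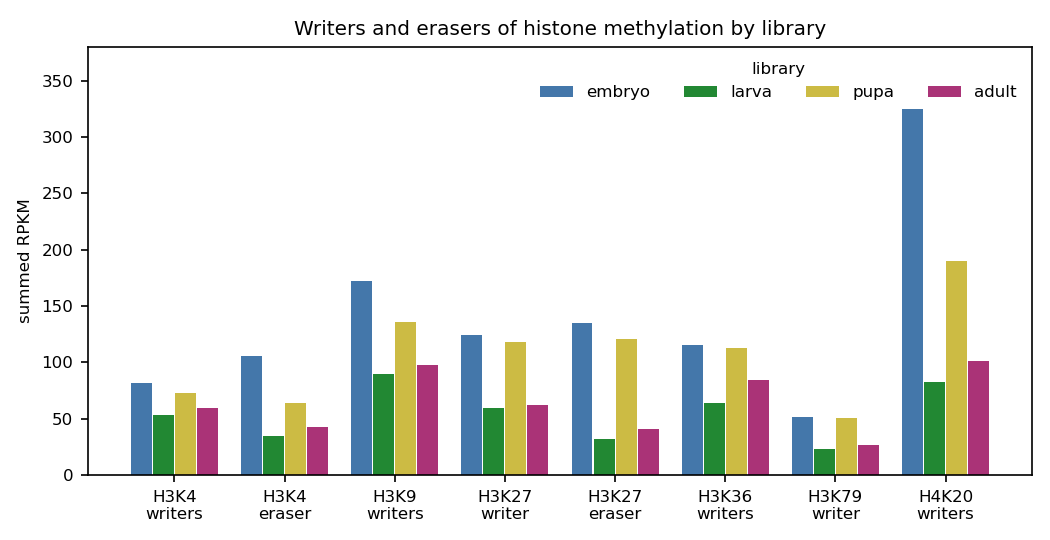
Summed RPKM of the writers and erasers of each methylated histone lysine (H3K4, H3K9, H3K27, H3K36 and H3K79 on histone H3, H4K20 on histone H4) in the embryo, larva, pupa and adult libraries. The H3K9 sum includes the model fused with eIF2 gamma. It also adds both SETDB models, which share a RefSeq ID, so that gene enters more than once. The H3K27 eraser Utx is close to its writer E(z) in embryo and pupa and clearly shorter in the larva, where E(z) stands at 59.9 RPKM and Utx at 31.7, and the H4K20 writers sum to 325 RPKM in the embryo and 82.8 in the larva.

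Acetyltransferases did not share 1 order. Gcn5 (TC014774), the catalytic subunit of the SAGA coactivator, was at 81.0, 45.8, 43.7 and 30.9 RPKM from embryo to adult, lower at each later stage, though larva and pupa overlapped. Tip60 (TC008142), which acetylates histone H4 and H2A in transcription and repair, was highest in the pupa. It had 60.9 RPKM in embryos, 28.9 in larvae, 83.5 in pupae and 41.9 in adults, and the pupa was 2.89-fold above the larva (2.39 to 3.51). The MYST enzyme mof (TC003573), which acetylates lysine 16 of histone H4 and serves dosage compensation in Drosophila, had 78.0, 28.9, 49.8 and 49.7 RPKM. Its larval level was 2.70-fold below the embryo (2.21 to 3.31), and pupa and adult were level. Chameau (chm, TC011945) had 16.3, 11.8, 19.7 and 9.18 RPKM, and enoki mushroom (enok, TC006477) had 17.9, 22.3, 31.2 and 28.9, lowest in the embryo. Hat1 (TC002077), which acetylates newly made histones, was among the steadiest, with 75.4, 56.5, 67.7 and 82.2 RPKM. Oga (TC012768) is matched through the acetyltransferase word in its KEGG text but is known for removing O-linked N-acetylglucosamine from proteins, and it had 23.9, 22.8, 37.5 and 24.7 RPKM. The 8 well matched models of this class include Oga and the partner subunit DMAP1. Of the 8, 3 were lower in the larva than in the embryo, DMAP1 among them, near the 34.2% of all genes. After median-ratio rescaling 0 of 8 were lower, beside 16.8%.

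HDAC1 (TC002540), the Rpd3-type class I deacetylase of the SIN3 and NuRD complexes, differed most among the deacetylases. It had 167 RPKM in embryos, 71.4 in larvae, 110 in pupae and 41.1 in adults. The larva was 2.34-fold below the embryo (2.07 to 2.66) and the adult 2.66-fold below the pupa (2.26 to 3.16). HDAC3 (TC006104), of the SMRT-type corepressor complex, had 43.5, 30.0, 40.5 and 27.5 RPKM. Bin1 (TC000183), the SAP18 subunit of the SIN3 complex, had the embryo highest as well, with 199, 67.0, 125 and 74.9 RPKM. The class II enzyme HDAC4 (TC014342) was at 10.6, 10.7, 17.2 and 15.5 RPKM, and the HDAC6/10-type model TC014236 at 32.5, 29.4, 29.3 and 18.4. HDAC11 (TC007473), the class IV enzyme, was weakly expressed, with 8.97, 6.46, 5.19 and 12.04 RPKM. Its adult level was 2.32-fold above the pupal one (1.30 to 4.27), on 37 and 19 reads. TC007471 names HDAC8 but is fused with the histone chaperone NAP1, and the model as a whole had 245, 195, 290 and 306 RPKM, so how much belongs to the deacetylase cannot be told. Of the 7 models 2 were lower in the larva than in the embryo, HDAC1 and the partner subunit Bin1, and 0 higher. This was near the 34.2% of all genes that were lower, and 0 were lower after median-ratio rescaling, beside 16.8%. The class median for larva over embryo was -0.42, above the -0.62 of all genes, and turned to 0.15 on median-ratio scaling.

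Of the 6 sirtuins 2 were lower in the larva than in the embryo and 0 higher, near the 34.2% of all genes that were lower, and 3 were higher in the pupa than in the larva, beside 22.7% of all genes. On median-ratio scaling 1 was lower in the larva and 0 were higher in the pupa. Sirt7 (TC002298), the nucleolar sirtuin that in mammals acts on ribosomal DNA, had 49.1 RPKM in embryos, 11.0 in larvae, 26.2 in pupae and 17.4 in adults. The larva was 4.47-fold below the embryo (3.45 to 5.85), and the pupa 2.38-fold above the larva (1.81 to 3.17). Sirt6 (TC001003), a chromatin sirtuin, was at 59.4, 29.7, 61.0 and 32.2 RPKM, with embryo and pupa level and larva and adult level. The Sirt4 model TC014968 is fused with CCDC55 and had 153, 52.1, 117 and 60.4 RPKM for both genes. Sirt2 (TC009705), mainly cytoplasmic in mammals, was at 68.7, 66.4, 87.0 and 79.9 RPKM, Sirt1 (TC002584) at 43.2, 36.4, 45.6 and 26.1, and the mitochondrial Sirt5 (TC005187) at 14.1, 15.4, 18.5 and 9.74. Each of the 6 had a log2 ratio below 0 for adult over pupa, with a median of -0.82 and 0 past 2-fold, beside 53.6% of all genes below 0. On median-ratio scaling 5 were below 0 and Sirt2 above, with a median of -0.61. For larva over embryo the median of -0.61 became 0.02 on median-ratio scaling, so no direction is given for the class there.

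Polycomb group proteins form 2 complexes, of which PRC2 writes the lysine 27 mark and PRC1 binds it and modifies histone H2A. In PRC2, Su(z)12 (TC003521) had 20.3 RPKM in embryos, 15.5 in larvae, 31.2 in pupae and 10.3 in adults, and the adult was 3.05-fold below the pupa (2.30 to 4.08). The EED homologue escl (TC001356) had 65.6, 31.1, 44.6 and 21.3 RPKM, with the larva 2.11-fold below the embryo (1.71 to 2.59) and the adult 2.10-fold below the pupa (1.62 to 2.73). The Polycomb-like protein Pcl (TC004391), an accessory subunit, had 65.7, 26.1, 50.6 and 29.2. Adult Pcl was 1.74-fold below pupal Pcl (1.46 to 2.07), and adult E(z) was 1.89-fold below pupal E(z) (1.68 to 2.13). Su(z)12 was highest in the pupa, and escl and Pcl in the embryo, both as deposited and on median-ratio scaling. For E(z) the highest library was the embryo as deposited and the pupa on median-ratio scaling.

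In PRC1, Polycomb itself (Pc, TC012316) stood at 48.3, 21.9, 44.1 and 29.3 RPKM. The RING finger subunits differed among themselves although 3 of them share the PCGF4 annotation of the Psc type. TC005276 had 69.0 RPKM in embryos, 18.1 in larvae, 37.0 in pupae and 19.9 in adults, and its larva was 3.81-fold below the embryo (3.18 to 4.58). TC004246 had 40.4, 13.2, 22.4 and 34.4, with the adult 1.54-fold above the pupa (1.28 to 1.85). TC015065 was nearly level at 31.2, 24.9, 33.7 and 34.5 RPKM. The PCGF3-type l(3)73Ah (TC004601) had 61.2, 17.8, 24.3 and 12.9 RPKM, and its larva was 3.45-fold below the embryo (2.29 to 5.30). The second PCGF3 model, TC005337, was less abundant with 19.6, 6.07, 8.44 and 7.03 RPKM on 14 to 41 reads. The SCMH1-type model TC011043 had 62.1, 42.2, 57.2 and 41.6, and the Enhancer of Polycomb-like model TC008956, a Tip60 complex subunit in Drosophila, had 34.5, 19.5, 26.7 and 21.8. Of the 11 well matched polycomb group members, 7 were lower in the larva than in the embryo and 0 higher, beside 34.2% of all genes lower, and on median-ratio scaling 2 were lower, beside 16.8%. From larva to pupa 0 passed 2-fold with 1 RPKM added, beside 22.7% of all genes higher and 14.2% lower. Without the added 1 RPKM, Su(z)12 stood at 2.02-fold, TC005276 at 2.04-fold and Pc at 2.01-fold. Under TPM scaling 3 of the 11 were higher in the pupa, and 0 were on median-ratio scaling. From pupa to adult 2 were lower, beside 15.6% of all genes. The larva to embryo median of the 11 was -1.11 as deposited and -0.48 on median-ratio scaling.

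The 28 remaining members rest on weak matches or were set aside as having another function, and the widest ranges of all members were among them. TC010056, matched at a bit score of 51.2 to a histone-lysine term, is described in nr as a cuticular protein, and it had 0.796 RPKM in embryos, 71.5 in larvae, 0.704 in pupae and 1.67 in adults. The larva was 89.8-fold above the embryo (24.5 to 747) on 2 embryo reads. TC010690 was the other member higher in the larva, with 0.243, 7.72, 0.430 and 3.96 RPKM. In the opposite direction, TC004325 had 52.0, 1.68, 1.91 and 3.58 RPKM, TC006529 had 23.0, 0.825, 2.81 and 10.04, and TC015886 had 19.7, 1.28, 2.60 and 3.84, all highest in the embryo. TC006644 and TC005914 were highest in the adult, the first with 98.1 RPKM against 32.0 in the pupa and the other with 15.3 against 3.70. The 2 members set aside as of another function were TC008957, with 108, 55.7, 72.0 and 51.4 RPKM, and TC010167, with 179, 138, 281 and 265. RefSeq names TC010167 ced-6, and its KEGG hit scored 230 bits. TC008957 is described as a PX domain kinase, but its polycomb hit scored 1053 bits. It carries the same RefSeq ID as the Enhancer of Polycomb-like model TC008956 and the weakly matched TC006529, so its status is uncertain. Reads in the adult library alone, 3 in each case, were found for TC012767 and TC010979. Of the 22 tested from embryo to larva, 11 were lower in the larva and 2 higher, beside 34.2% and 18.6% of all genes. The most abundant of the weak matches in the embryo was TC005009, with 161, 62.0, 112 and 69.5 RPKM. At most 1.01 RPKM was reached by TC004893, and 4 members stayed below 1 RPKM in every library.

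Genes of related chromatin complexes were collected by name, outside the members. Beside the counts that follow stand 34.2% of all genes lower in the larva than in the embryo and 18.6% higher. Of 6 arginine methyltransferases 2 were lower in the larva and 0 higher, near the share of all genes, with the most abundant, Art1 (TC009722), at 242, 116, 159 and 83.5 RPKM. Both chromobox proteins of the HP1 type, which bind methylated lysine 9, were lower in the larva, and the more abundant one, TC015268, had 309, 124, 212 and 145 RPKM. Another model of that list, TC015972, is TBC1D16 by RefSeq, a GTPase regulator. Among 11 remodelling ATPases and their subunits 5 were lower in the larva and 0 higher, with Bap111 (TC007745) the most abundant at 183, 91.8, 181 and 90.3 RPKM, and among 6 NuRD and SIN3 subunits 3 were lower, with Mi-2 (TC012115), counted in both lists, at 162, 88.9, 150 and 72.9 RPKM. Menin (Mnn1, TC007870), a partner of the MLL-type methyltransferases, had 37.8, 29.5, 39.0 and 19.8 RPKM. On median-ratio scaling neither HP1-type protein, 0 of the arginine methyltransferases, 0 of the remodellers and 0 of the NuRD and SIN3 subunits were past 2-fold lower in the larva, where 16.8% of all genes were, and 1 arginine methyltransferase was higher.

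Histones themselves were lower in the larva than in the embryo in 7 of 9 tested models and higher in 1, beside 34.2% and 18.6% of all genes. On median-ratio scaling 4 were lower and 1 higher, beside 16.8% and 24.6%. The most abundant, TC005398, had 1499 RPKM in embryos, 258 in larvae, 626 in pupae and 280 in adults. TC000198 differed from the others, with 0 reads in embryo and larva, 11.4 RPKM in the pupa and 103 in the adult. Histone messages made in S phase mostly lack a poly(A) tail, and the libraries were selected with oligo(dT).

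Markers of dividing cells and of tissues also differed between the libraries, and their part in the members' values was not tested. The 17 proliferation genes (PCNA, MCM proteins, cyclins, ribonucleotide reductase) summed to 495 RPKM in embryos, 450 in larvae, 329 in pupae and 408 in adults, with 0 genes without reads in any library. For larva over embryo their median log2 ratio was 0.38, where that of the members was -0.94. At that step 1 of the 17 was higher and 4 were lower, and on median-ratio scaling 9 were higher and 1 lower, with a median of 1.01. The 7 neuronal genes summed to 951, 300, 542 and 396 RPKM, and 4 of the 7 were lower in the larva, or 3 on median-ratio scaling. That sum has the order of stages found in 20 of the well matched members, and the embryo was highest in 4 of the 7 genes. Their adult over pupa median was -0.05, beside -0.48 for the well matched members and -0.09 for all genes. The 6 germ line genes summed to 298, 295, 346 and 319 RPKM. Vitellogenin was close to absent from the adult library, with 0.241 RPKM for TC010839 and 0.422 for TC013602. Both models were highest in the larva, at 6.51 and 1.40 RPKM. The vitellogenin receptor model TC004042 was instead highest in the adult, with 4.65, 0, 0.616 and 11.97 RPKM. Its adult level rested on 49 reads and its pupal level on 3. TC009851, vitellogenin by nr text but Rchy1 by RefSeq, had 58.4, 50.4, 32.1 and 29.02 RPKM. The 12 muscle genes summed to 5255, 7519, 5597 and 16461 RPKM, the 17 gut proteases to 266, 5295, 713 and 451, with 7 of the 17 at 0 reads in the embryo, and the 4 eye genes to 140, 77.5, 165 and 545. The sperm axoneme was represented by tektin (TC005997) alone, at 3.51, 0.187, 8.38 and 91.3 RPKM.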

How the data were processed

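Whole-body RNA was extracted with TRIzol, selected with oligo(dT), primed with random hexamers and sequenced on an Illumina Genome Analyzer, per the labels' protocols. No strand step is described, so antisense reads are not separable. The 4 bisulfite libraries of the series are not analysed here. SAMtools 0.1.19, BSMAP 2.73 and CASAVA 1.8.2 appear without a role in the submitters' processing notes. How RNA reads were aligned and counted, and on which build and annotation, is a point not given in the sources used here. Gene positions are left out for that reason.

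Counts are unique reads per gene model, per the file headers, which undercounts near-identical copies. The authors deposited RPKM beside the counts, and recomputing RPKM from the counts gave the same values. The deposited coverage in percent of the model was not used in a comparison. Models not listed in a file were taken as 0 reads.

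Libraries were compared at 3 consecutive steps as log2 ratios of (RPKM + 1), which makes differences at low levels look smaller. Genes entered a step when either library reached 1 RPKM. A well matched member names the enzyme in its nr description or in a KEGG hit of at least 200 bits. TC008957 and TC010167 passed 200 bits but were left out of the well matched set. Intervals are exact 95% Poisson or conditional binomial intervals. Named were all DNA methylation, sirtuin and polycomb group members, the most abundant and most changed of each other class, the widest ranges, and members with reads in 1 library. Other well matched members were named after their values were seen. Other settings were a pseudocount of 0.1, no filter or 5 RPKM, median-ratio rescaling, totals without the 20 most abundant genes, TPM, a 4-fold threshold, intervals wholly beyond 2-fold, nr text alone, and members without weak matches. The members and lists were chosen with earlier results of these data known. Gene symbols come from RefSeq, matched by gene ID or protein accession, for 53 of the 80 members. The steps were tested on simulated data. Scripts ran on Python 3.11.15 with scipy 1.17.1, pandas 2.3.3, numpy 2.4.6 and, for figures, matplotlib 3.10.9.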

Additional observations from a re-analysis of the deposited data

How the results depend on the processing

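No paired analysis was possible because each stage has 1 library. Depth limits the members with few reads, such as HDAC11 and the short SETDB model. With median-ratio rescaling, 12 of 74 members were lower in the larva than in the embryo (median -0.34), beside 16.8% of all genes. On that scaling 5 of 74 were higher in the pupa than in the larva (median 0.25), beside 13.9%. In the adult 3 of 77 were lower than in the pupa (median -0.17), beside 11.8%. The larva was highest in 11 of 77 and the adult in 21, beside 26.4% and 29.2% of all genes. None of these shares exceeded that of all genes. With the 20 most abundant genes left out of the totals, 9 of 74 were higher in the pupa than in the larva (median 0.49). Over all genes 2312 of 12491 were higher (median 0.24). The larva was then highest in 4 of 78 members and in 19.6% of all genes. Without weak matches and other functions, 0 of 52 were higher in the larva than in the embryo, beside 18.6% of all genes. In the pupa 9 were higher and 0 lower than in the larva, beside 22.7% and 14.2%. In the adult 1 was higher than in the pupa, beside 22.8%. The larva was highest in 0 and the adult in 4, beside 15.7% and 25.4%. By nr text alone, which leaves 12 members, 0 were higher and 6 lower in the larva than in the embryo, beside 18.6% and 34.2%. From larva to pupa 2 were higher and 0 lower, beside 22.7% and 14.2%. From pupa to adult 1 was higher and 3 lower (median -0.56), beside 22.8% and 15.6%. The embryo was highest in 8, the larva in 0, the pupa in 3 and the adult in 1. Over all genes these were 42.0%, 15.7%, 16.9% and 25.4%. At 4-fold, 6 were lower in the larva than in the embryo, beside 9.65% of all genes. At that threshold 0 were higher in the pupa than in the larva, beside 5.86%. In the adult 0 were higher and 0 lower than in the pupa, beside 11.7% and 4.58%. With intervals wholly beyond 2-fold, 5 were higher in the pupa than in the larva, beside 10.6% of all genes. In the adult 3 were higher and 3 lower than in the pupa, beside 14.9% and 7.93%. With a filter of 5 RPKM, 4 of 69 were higher in the adult than in the pupa, beside 2261 of 10710 genes. None of the 3 medians changed sign under the settings run. Median-ratio rescaling could not have changed them, as its shifts of 0.64, -0.46 and 0.22 on the log2 scale were smaller than the medians. Ratios of named members crossed 2-fold under median-ratio rescaling in 30 of 174 cases, with the abundant genes left out in 17 and under TPM in 5. No called ratio changed sign, but a called ratio is at least 2-fold and the median-ratio factor was at most 1.56, so this is no check. Leaving out the fused models and adding the list with E(z) were decided after seeing the data. Without the fused models, 34 of 70 members were lower in the larva than in the embryo, beside 34.2% of all genes.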

Other observations

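Chromatin regulators whose text the search terms miss were added as a list after their values were seen. In the larva 4 of these 7 were lower than in the embryo and 0 higher, with a median log2 ratio of -1.05, beside 34.2% of all genes lower and 18.6% higher and a median of -0.62. On median-ratio scaling 1 was past 2-fold lower, beside 16.8% of all genes. The CBP acetyltransferase nejire (nej, TC008222) had 41.2 RPKM in embryos, 21.6 in larvae, 30.6 in pupae and 31.1 in adults. Jarid2 (TC002791), a partner of PRC2 in mammals, had 35.3, 16.3, 22.8 and 18.7 RPKM, and the PHF8-type demethylase TC010820 had 54.9, 16.8, 24.5 and 25.9.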
